A study of Mus musculus with 24 samples.

Results

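The genes described here are 39 members of the Toll-like receptor 4 (TLR4) and NF-kB pathway, taken by gene symbol out of the 54309 gene models of the deposited count table. They are 7 receptors and adaptors, 15 kinases and ubiquitin-linked signalling proteins, 7 transcription factors and 10 genes grouped as feedback inhibitors, and all 39 were found. The choice rule used no measured value, but the list was drawn up with earlier results of these data known. RNA came from BMDC, dendritic cells derived in culture from mouse bone marrow, made from bulk bone marrow over 7 days in medium rich in GM-CSF, a growth factor for myeloid cells. The cells were wild type (WT) or carried the BRAF-V600E kinase of Langerhans cell histiocytosis (LCH; also called mutant in the labels). BRAF-V600E is a permanently active form of a kinase upstream of MEK and ERK.

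Genotype, inhibitor and RNA fraction gave 8 groups of 3 libraries. WT and LCH cells were either left without inhibitor or given a BRAF-V600E inhibitor 1 h before LPS, the bacterial lipopolysaccharide that TLR4 senses. Every culture of both genotypes then received LPS for 3 h (the labels give 100 ug per mL, and the files cannot check this unit) and a pulse of cycloheximide (100 ug per mL), so there was no culture without LPS and no response to LPS itself could be measured. Part of each culture gave total RNA, and the rest gave polysome RNA, which came from pooled gradient fractions holding several ribosomes per mRNA. The labels name neither the promoter that drives the mutant kinase nor the inhibitor. The libraries come from pools lettered A, BD and C for WT and E, F and G for LCH. In polysome RNA the last LCH pool is lettered GH, and it was taken as the same culture as pool G.

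TLR4 at the cell surface binds LPS together with Ly96, after Cd14 has passed the LPS on. The adaptors Tirap and Myd88 then recruit the Irak kinases and Traf6, which through Map3k7 and the Tab proteins switch on the IKK kinases, and these release NF-kB dimers from their IkB inhibitors. The adaptors Ticam1 and Ticam2 serve a second arm that leads through Traf3, Tbk1 and Ikbke to Irf3, and dendritic cells answer to both arms with cytokines, costimulatory molecules and a set of NF-kB-induced inhibitors of the same pathway.

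Promoter sequences are shown for the feedback inhibitors on which the results turn, because these genes are known as NF-kB targets themselves. RefSeq promoter windows of build GRCm38.p6, from 250 bases before to 50 bases after a gene's start, were found for 29 of the 39 genes. They were searched on both strands for the 10-letter kappaB consensus, which is GGG, a purine, any pair of bases, a pair of pyrimidines and CC, so that neighbouring matches can overlap. A match is a description of the letters and not a measured binding site. Of 9 feedback inhibitors with a window, 8 held a match (88.9%), against 2 of 5 transcription factors (40%), 3 of 12 kinases and ubiquitin-linked proteins (25%), 0 of 3 receptors and adaptors, and 9.55% of all 27025 genes with a window. The match-holding inhibitors were Nfkbia, Nfkbid, Nfkbie, Bcl3, Tnfaip3, Tnip1, Tnip3 and Cyld, and the window of Nfkbib held none. Each sequence runs 5′ to 3′ along its gene, with the matches in capitals.
Nfkbia promoter, chr12:55492598-55492897, minus strand, match at -29 to -20 from the start: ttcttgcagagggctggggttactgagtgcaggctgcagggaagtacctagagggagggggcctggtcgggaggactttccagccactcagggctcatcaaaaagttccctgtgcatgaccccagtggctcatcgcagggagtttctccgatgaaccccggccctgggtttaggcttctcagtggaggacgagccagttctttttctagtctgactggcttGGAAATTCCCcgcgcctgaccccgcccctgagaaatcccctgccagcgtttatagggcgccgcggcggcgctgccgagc
Nfkbid promoter, chr7:30422156-30422455, plus strand, matches at -226 to -217 and -181 to -172: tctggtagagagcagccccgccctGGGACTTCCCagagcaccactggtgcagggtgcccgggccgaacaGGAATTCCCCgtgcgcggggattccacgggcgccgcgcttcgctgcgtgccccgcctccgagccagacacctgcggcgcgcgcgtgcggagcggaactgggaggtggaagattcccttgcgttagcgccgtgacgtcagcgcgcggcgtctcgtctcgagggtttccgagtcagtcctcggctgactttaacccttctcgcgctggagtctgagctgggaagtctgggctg
Nfkbie promoter, chr17:45555450-45555749, plus strand, match at -106 to -97: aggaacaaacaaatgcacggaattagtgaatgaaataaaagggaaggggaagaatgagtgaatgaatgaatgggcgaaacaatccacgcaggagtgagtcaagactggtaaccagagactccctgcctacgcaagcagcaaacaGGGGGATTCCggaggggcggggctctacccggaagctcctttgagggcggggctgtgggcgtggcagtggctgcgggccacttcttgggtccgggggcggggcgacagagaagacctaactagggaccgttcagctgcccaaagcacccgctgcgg
Tnfaip3 promoter, chr10:19015361-19015660, minus strand, matches at -125 to -116 and -12 to -3: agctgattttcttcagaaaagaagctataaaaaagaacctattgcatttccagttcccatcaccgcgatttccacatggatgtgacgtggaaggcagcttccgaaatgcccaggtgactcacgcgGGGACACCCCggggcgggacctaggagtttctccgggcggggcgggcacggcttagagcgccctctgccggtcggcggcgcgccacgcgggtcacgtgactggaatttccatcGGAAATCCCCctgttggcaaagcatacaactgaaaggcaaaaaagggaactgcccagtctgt
Tnip3 promoter, chr6:65590148-65590447, plus strand, match at -54 to -45: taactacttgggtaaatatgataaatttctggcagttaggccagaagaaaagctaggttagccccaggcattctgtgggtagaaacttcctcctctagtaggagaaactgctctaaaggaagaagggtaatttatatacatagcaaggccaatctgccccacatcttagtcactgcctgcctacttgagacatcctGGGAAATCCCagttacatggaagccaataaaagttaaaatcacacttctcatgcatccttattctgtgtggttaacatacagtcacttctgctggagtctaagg
The Tnip3 match lay closer to the start than the Nfkbie match, and Tnfaip3 and Nfkbid each held a pair of separate matches. A second annotated start of Tnfaip3, at chr10:19011914-19012213, and the other 2 of Nfkbid, at chr7:30421481-30421780 and chr7:30423025-30423324, had no match in their windows.

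All 39 genes had counts in every total RNA library and in every LCH polysome library. On the annotation of the count table, 5 of them overlap another gene model on the same strand (Myd88, Ticam2, Irak1, Irak2 and Nfkb1) and 17 one on the other strand, among them Tirap, Irak3, Ikbkg and Nfkbib, and whether counting used strand is not given in the sources used here. Total RNA libraries held 19046640 to 39792221 estimated counts, of which 165051 to 318758 fell on the 39 genes. LCH polysome libraries had 22290 to 126598 counts on them and WT polysome libraries 132 to 3285. Both pool G libraries with inhibitor carried 22.3% (total) and 22.4% (polysome) of their counts on 4 gene models, Gm10800, Gm10718, Gm10719 and Gm10721, which held 1.64% and 0.355% in pool G without inhibitor and at most 0.0184% in every other library. More gene models had counts in pool G, also without inhibitor. In total RNA these were 37388 without and 38431 with inhibitor, against 16837 to 18406 in the other total RNA libraries. In polysome RNA they were 27571 and 36772, against 11077 to 13505 in the other LCH libraries. Pool F was the shallowest LCH pool in polysome RNA. All 12 dendritic cell markers checked were present in every group. Without inhibitor 3 of them were higher in LCH (Cd209a, Dpp4 and Kmo, at log2 differences of 2.61, 2.71 and 2.35), 2 were lower (Ccr7 at -1.45 and Batf3 at -0.61) and 7 did not pass, and their sums overlapped. Without inhibitor, summed markers of neutrophils were 391 to 526 CPM (TMM-scaled counts per 1e+06 counts) in LCH and 1360 to 3350 CPM in WT total RNA, with 8 of 9 genes lower in LCH, and summed eosinophil markers were 37.5 to 90 CPM and 373 to 676 CPM. Of the eosinophil markers, Siglecf was higher in LCH at a log2 difference of 1.25, and Epx, Prg2, Prg3, Ear1 and Ear6 were lower. Summed markers of mast cells and basophils were 48.7 to 69.3 CPM in LCH and 90.6 to 229 CPM in WT, with 5 of 6 genes lower and Kit higher in LCH. The summed macrophage markers ran from 1510 to 2070 CPM and from 1740 to 3140 CPM, which overlapped. The part of these other cells in the results was not tested, and in bulk RNA fewer cells of a type and less RNA per cell cannot be told apart. Braf itself averaged 28.2 ± 5.05 CPM in LCH and 34.8 ± 1.49 CPM (SD, n = 3) in WT, a log2 difference of -0.31 with an adjusted p of 0.12, and the level of Braf does not check a point change.

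In total RNA the spread of the 39 genes over the 12 libraries was measured without a reference from other genes. The ratio of the highest to the lowest library had a median of 1.65 over the genes, from 1.2 for Tab2, a binding partner of Map3k7, to 3.31 for Tnip3, a partner of the ubiquitin-editing enzyme Tnfaip3. The plot of levels by library shows 8 of the genes whose groups are described next.

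**Figure D1:**
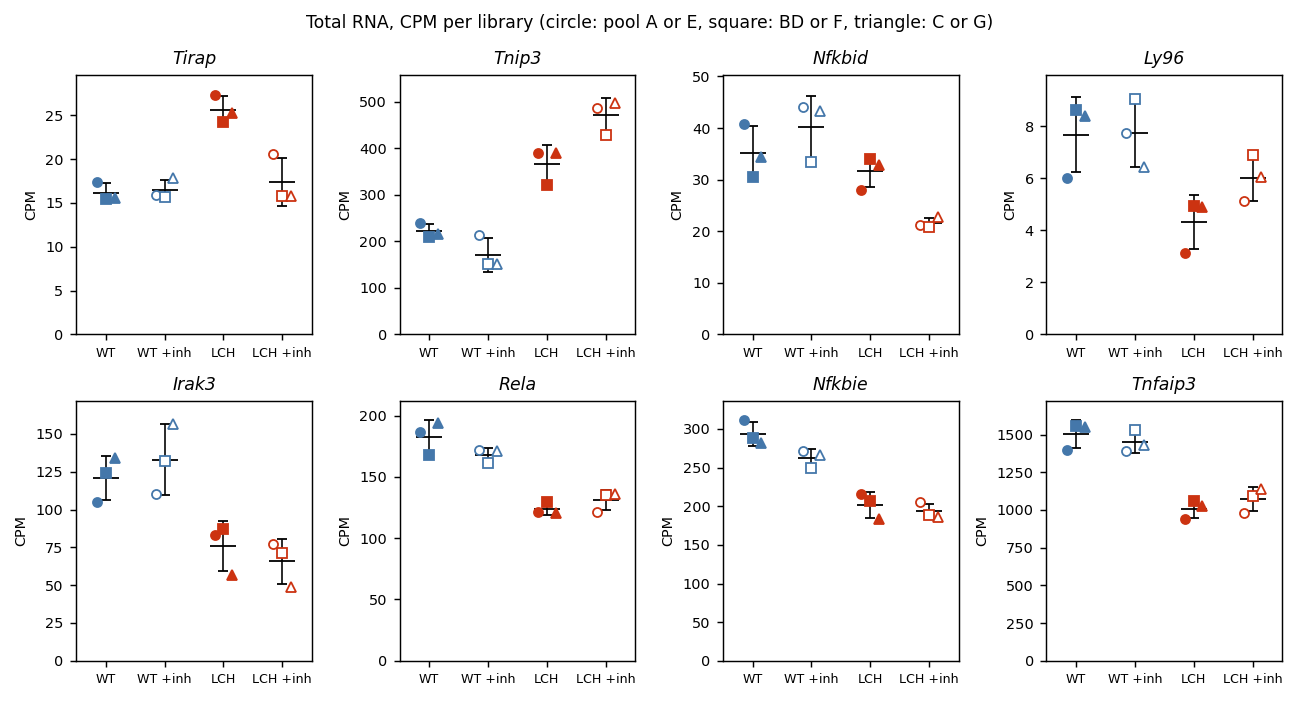
Levels of 8 genes in total RNA, as CPM on linear axes that start at 0, in WT cells (blue) and LCH cells (red) without (filled) and with (open) inhibitor. Each symbol is 1 library, circles for pools A and E, squares for BD and F, triangles for C and G, and bars give mean ± SD of 3 libraries. Tirap in LCH without inhibitor stands above the other groups, Tnip3 in LCH lies above WT in both states, and Rela, Nfkbie and Tnfaip3 in LCH lie below WT in both states.

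The first comparison asked how the LCH genotype differed from WT in total RNA without inhibitor. The pathway did not move as a block. LCH cells had more mRNA of the adaptor Tirap and of Tnip3, and less of the NF-kB subunit Rela and of the inhibitors Nfkbib, Nfkbie and Tnfaip3. In all, 5 of the 39 genes were higher, 10 were lower and 24 did not pass (edgeR quasi-likelihood test, Benjamini-Hochberg adjusted over all genes, threshold 0.05). Of all 13375 genes tested 29.7% were called, 14.8% higher and 14.9% lower, and the median log2 difference was -0.004 over the 39 genes and 0.02 over all genes. By role, 3 kinases and ubiquitin-linked proteins were higher and 5 lower of 15, 1 feedback inhibitor was higher and 3 were lower of 10, 1 receptor or adaptor was higher and 1 lower of 7, and 1 transcription factor was lower of 7.

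**Figure D2:**
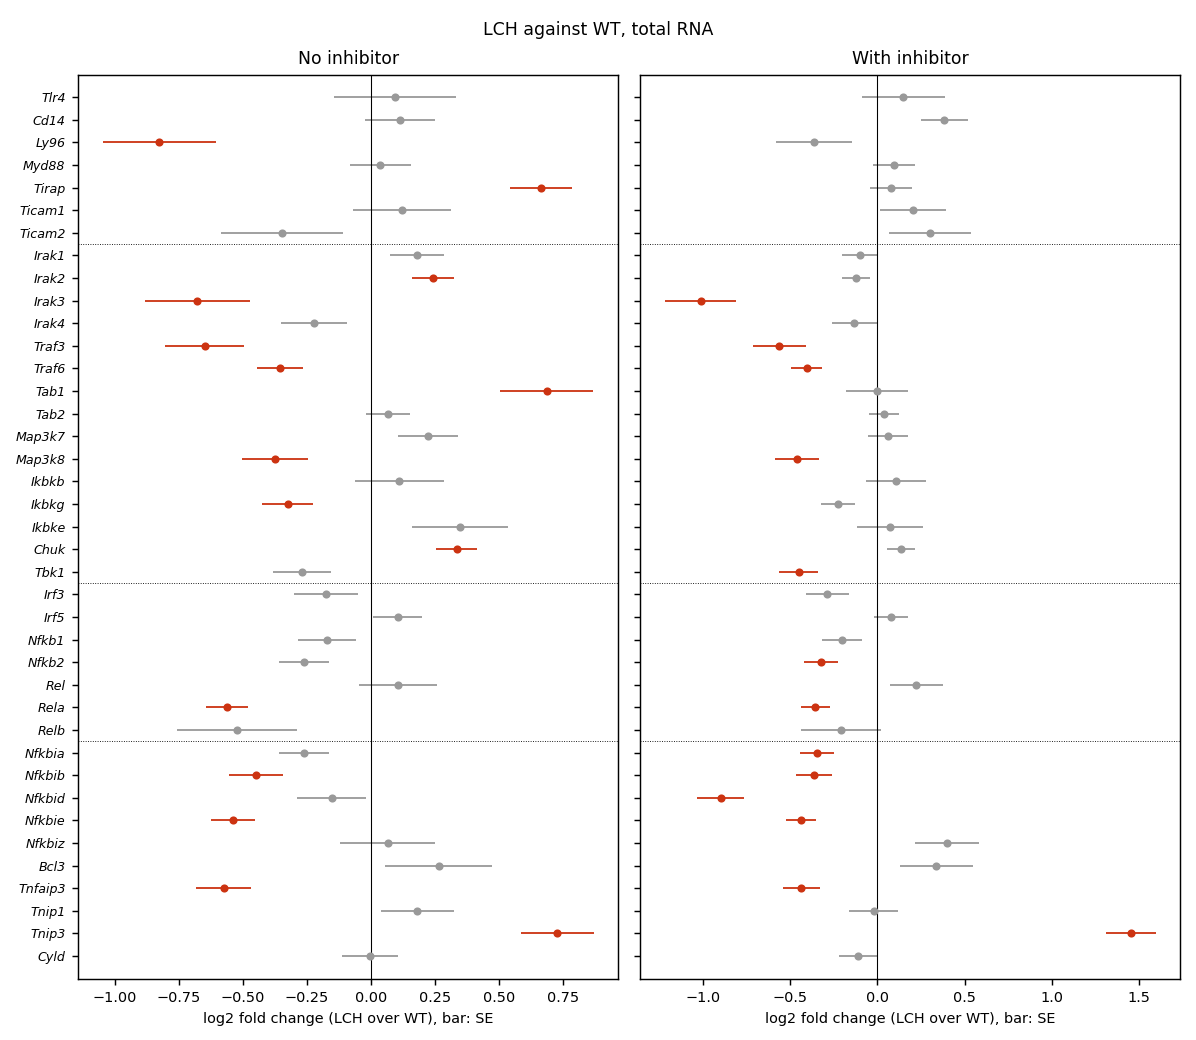
LCH against WT log2 difference in total RNA for each of the 39 genes, ordered by role, without inhibitor (left) and with inhibitor (right). Points are edgeR estimates with bars of 1 SE, and red points passed an adjusted p of 0.05 over all genes. With inhibitor, Tnip3 is the only red point above 0 among 13 red points, and without inhibitor 5 of 15 lie above 0.

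Among receptors and adaptors, Tirap (ENSMUSG00000032041.16, chromosome 9), which brings Myd88 to the receptor, stood at 27.3, 24.25 and 25.2 CPM in LCH pools E, F and G and at 17.4, 15.5 and 15.6 CPM in WT pools A, BD and C. Every LCH library was above every WT library. The log2 difference was 0.66 ± 0.12 (SE), with an adjusted p of 0.00205. Ly96 (ENSMUSG00000025779.11, chromosome 1), the LPS-binding partner of TLR4, measured 3.11, 4.93 and 4.91 CPM in LCH and 6.005, 8.63 and 8.37 CPM in WT. These groups did not overlap either, with LCH lower by a log2 difference of -0.83 ± 0.22 and an adjusted p of 0.0158. The Ly96 call was lost without LCH pool E (adjusted p 0.0622), WT pool BD (0.0582) or WT pool C (0.0638). Tlr4, the receptor itself, averaged 22.3 ± 3.37 CPM (SD, n = 3) in LCH and 20.9 ± 3.82 CPM (SD, n = 3) in WT, and its groups overlapped. Cd14, the most abundantly counted gene of this role, ranged from 748 to 971 CPM in LCH and from 757 to 898 CPM in WT, with a log2 difference of 0.11 ± 0.14 and an adjusted p of 0.564. Myd88, the central adaptor, overlapped at 279 to 328 CPM in LCH and 266 to 317 CPM in WT, and Ticam1 and Ticam2 overlapped too.

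Among the kinases and ubiquitin-linked proteins, Traf3, a ubiquitin ligase of the Irf3 arm, measured 32.4, 39.3 and 26.1 CPM in LCH and 55.3, 51.7 and 46.2 CPM in WT. Traf6, the ubiquitin ligase downstream of the Irak kinases, measured 37.3, 38.1 and 39.1 CPM in LCH against 50.8, 46.8 and 48.85 CPM in WT. LCH was below WT in every library for both ligases. The log2 difference was -0.65 ± 0.15 for Traf3 (adjusted p 0.00884) and -0.36 ± 0.09 for Traf6 (adjusted p 0.0126). Leaving out any single library kept both calls, while with the authors' rlog values and limma they did not pass (adjusted p 0.107 and 0.198), and Traf6 did not pass without a low-count filter (0.052). Chuk, a catalytic IKK subunit, measured 57.9, 56.5 and 57.1 CPM in LCH and 48.0, 41.7 and 46.4 CPM in WT, a log2 difference of 0.33 ± 0.08 with an adjusted p of 0.0085. It was higher in each LCH library, and its adjusted p was 0.0555 without WT pool BD, 0.0568 with rlog values and 0.13 without a low-count filter. Tab1, which binds and activates Map3k7, was higher in LCH at 7.55, 8.93 and 7.76 CPM against 4.76, 5.06 and 5.24 CPM, a log2 difference of 0.68 ± 0.18 with an adjusted p of 0.0146. Without LCH pool F or WT pool BD its adjusted p was 0.0655 and 0.0501.

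Irak3, a member of the Irak family known to restrain the pathway, was lower in LCH at 83.3, 87.1 and 56.75 CPM against 105, 124 and 134 CPM, with the lowest value in pool G. The log2 difference was -0.68 ± 0.21 with an adjusted p of 0.0281, and the adjusted p was 0.061 without LCH pool E, 0.0901 without LCH pool G, 0.0828 without WT pool BD and 0.119 without WT pool C. The remaining 3 calls of this role, Irak2 (log2 difference 0.24, adjusted p 0.0425), Map3k8 (-0.37, 0.0461) and Ikbkg (-0.33, 0.0273), lay near the threshold. They are a kinase of the Myd88 complex, a kinase that feeds into MEK and ERK, and the scaffold of the IKK complex. The Irak2 call was lost without any 1 of the 6 libraries (adjusted p 0.0777 to 0.142), the Map3k8 call without LCH pool E, LCH pool F, WT pool A, WT pool BD or WT pool C (0.057 to 0.146), and the Ikbkg call without LCH pool E, LCH pool G, WT pool BD or WT pool C (0.0528 to 0.107). They were also lost without a low-count filter for Irak2 (0.442) and with rlog values for Map3k8 (0.185) and Ikbkg (0.159). Ikbke, an Irf3 kinase and the most abundantly counted gene of this role, ranged from 404 to 543 CPM in LCH and from 283 to 443 CPM in WT, a log2 difference of 0.35 ± 0.19 with an adjusted p of 0.186. Irak1, Irak4, Tab2, Map3k7, Ikbkb and Tbk1 did not pass, though the groups of Irak4, Tab2 and Tbk1 did not overlap. How often groups did not overlap over all genes was not counted.

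Of the transcription factors, only Rela passed. Rela (ENSMUSG00000024927.9, chromosome 19), the main activating NF-kB subunit, measured 122, 130 and 120 CPM in LCH and 187, 168 and 194 CPM in WT. The groups were far apart, with the highest LCH library well under the lowest WT library. The log2 difference was -0.56 ± 0.08 with an adjusted p of 0.00058, and it passed under all 12 alternatives. Nfkb1, which encodes a precursor that yields the partner of Rela, ranged from 741 to 812 CPM in LCH and from 800 to 964 CPM in WT, with a log2 difference of -0.17 ± 0.11 and an adjusted p of 0.27. Nfkb2, Rel, Relb, Irf3 and Irf5 did not pass, though the groups of Nfkb2 and Relb did not overlap. Relb, the subunit of the alternative NF-kB pathway, varied widely among WT pools (328, 188 and 222 CPM) and little among LCH pools (178, 166 and 169 CPM).

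Among the feedback inhibitors, Tnfaip3 (ENSMUSG00000019850.12, chromosome 10), a ubiquitin-editing enzyme that ends the signal, measured 942, 1059 and 1025 CPM in LCH and 1399, 1558 and 1552 CPM in WT. Nfkbie (ENSMUSG00000023947.9, chromosome 17), an IkB protein, measured 215, 207 and 183 CPM in LCH and 311, 288 and 281 CPM in WT. LCH was below WT without overlap for both, with log2 differences of -0.58 ± 0.11 (adjusted p 0.00243) and -0.54 ± 0.09 (adjusted p 0.000979). Nfkbib, another IkB protein, averaged 112 ± 2.80 CPM (SD, n = 3) in LCH and 153 ± 10.2 CPM (SD, n = 3) in WT, a log2 difference of -0.45 ± 0.11 with an adjusted p of 0.00816. Tnip3 (ENSMUSG00000044162.13, chromosome 6) went the other way, at 389, 320 and 389.5 CPM in LCH against 239, 208.5 and 217 CPM in WT. All LCH libraries were above all WT libraries, and the log2 difference was 0.73 ± 0.14 with an adjusted p of 0.0031. These 4 calls held under all 12 alternatives. Nfkbia, the IkB protein that NF-kB itself refills most quickly, ranged from 712.5 to 798 CPM in LCH and from 833 to 957 CPM in WT without passing, and Nfkbid, Nfkbiz, Bcl3, Tnip1 and Cyld did not pass. Without WT pool BD the number of the 39 genes called was 9 in place of 15, and without pool G it was 15.

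The second comparison set LCH against WT when both had received the inhibitor. Lower levels outnumbered higher ones: Tnip3 was higher in LCH, and 12 genes were lower, among them Irak3, Rela, Nfkbid, Nfkbie and Tnfaip3. The other 26 did not pass. Over all genes 20.3% were called, 9.27% higher and 11.1% lower, and the median log2 difference was -0.113 over the 39 genes and 0.008 over all genes. Among the feedback inhibitors 1 was higher and 5 were lower, among the transcription factors 2 were lower, among kinases and ubiquitin-linked proteins 5 were lower, and no receptor or adaptor passed. Tirap stood at 20.6, 15.8 and 15.8 CPM in LCH and 15.9, 15.7 and 17.8 CPM in WT, so its groups overlapped.

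With inhibitor, Tnip3 measured 486, 428 and 498 CPM in LCH and 214, 151 and 151 CPM in WT. The log2 difference was 1.45 ± 0.14 with an adjusted p of 1e-04, the widest gap between genotypes among the 39 genes in either state. Nfkbid (ENSMUSG00000036931.16, chromosome 7), a nuclear IkB protein, measured 21.2, 20.8 and 22.7 CPM in LCH and 44.1, 33.3 and 43.3 CPM in WT. LCH values lay close together and below all WT values, a log2 difference of -0.90 ± 0.13 with an adjusted p of 0.000985. Irak3 measured 77.4, 71 and 49.05 CPM in LCH and 110, 132 and 157 CPM in WT, a log2 difference of -1.02 ± 0.21 with an adjusted p of 0.00585. Nfkbie averaged 193 ± 10.1 CPM (SD, n = 3) in LCH and 262.5 ± 11.6 CPM (SD, n = 3) in WT, a log2 difference of -0.44 ± 0.09 with an adjusted p of 0.0045. These 4 calls held under all 12 alternatives.

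The other calls with inhibitor were smaller. Rela averaged 131 ± 8.06 CPM in LCH and 168 ± 5.93 CPM in WT, and Tnfaip3 averaged 1071 ± 80.7 CPM and 1449 ± 70.5 CPM (SD, n = 3). Neither gene's groups overlapped, with log2 differences of -0.36 ± 0.08 (adjusted p 0.0103) and -0.44 ± 0.11 (adjusted p 0.0144), and both calls were lost without LCH pool E (adjusted p 0.0517 and 0.0532). Rela also did not pass without a low-count filter (0.0847), nor Tnfaip3 with only the compared groups (0.0736). Traf6 was lower by a log2 difference of -0.41 (adjusted p 0.00895), and no single library ended that call, though rlog values did (0.0714). Traf3 (-0.56, adjusted p 0.0231), Map3k8 (-0.46, 0.0256), Tbk1 (-0.45, 0.0156), Nfkb2 (-0.33, 0.0371), Nfkbia (-0.34, 0.028) and Nfkbib (-0.36, 0.0302) each lost their call without certain single libraries. For Traf3 these were LCH pools F and G and WT pools A and C (adjusted p 0.0715 to 0.0942), for Map3k8 LCH pools E and F and WT pools BD and C (0.0619 to 0.0945), and for Tbk1 LCH pools E and F and WT pool C (0.0583 to 0.0623). For Nfkb2 and Nfkbib they were the 3 LCH pools and WT pools A and C (0.0593 to 0.119 and 0.0559 to 0.0936), and for Nfkbia LCH pool E and WT pool C (0.0912 and 0.088). Other settings ended these 6 calls too, with rlog values for Traf3 (0.153), Map3k8 (0.0672) and Tbk1 (0.181), without a low-count filter for Nfkb2 (0.195) and Nfkbia (0.153), and with only the compared groups for Nfkbib (0.0932). The number of the 39 genes called was 6 without LCH pool E, 8 without LCH pool F and 7 without WT pool C, in place of 13, and it was 11 with all libraries of pool G left out. In this state, summed neutrophil markers were 279 to 432 CPM in LCH and 2200 to 4680 CPM in WT. Summed eosinophil markers were 34.5 to 80.5 CPM and 507 to 893 CPM, and summed mast cell and basophil markers 60.1 to 90.3 CPM and 125 to 312 CPM. Summed dendritic cell markers did not overlap either, at 17900 to 18500 CPM in LCH and 8380 to 15400 CPM in WT. The part of the cell make-up in these differences was not tested.

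The third comparison followed the inhibitor itself within each genotype. When libraries were treated as unpaired, none of the 39 genes passed in LCH or in WT, against 0.740% and 0.710% of all genes. In LCH 6 genes had an unadjusted p under 0.05 in edgeR and 3 passed with DESeq2, and in WT these counts were 4 and 0. Libraries with the same pool letter deviated together, and with the pool as a block 12 genes passed in LCH, 6 up and 6 down, and 10 in WT, 6 up and 4 down. The block called 17.2% of all genes in LCH and 21.7% in WT. The tests that follow are those of the blocked fit.

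**Figure D3:**
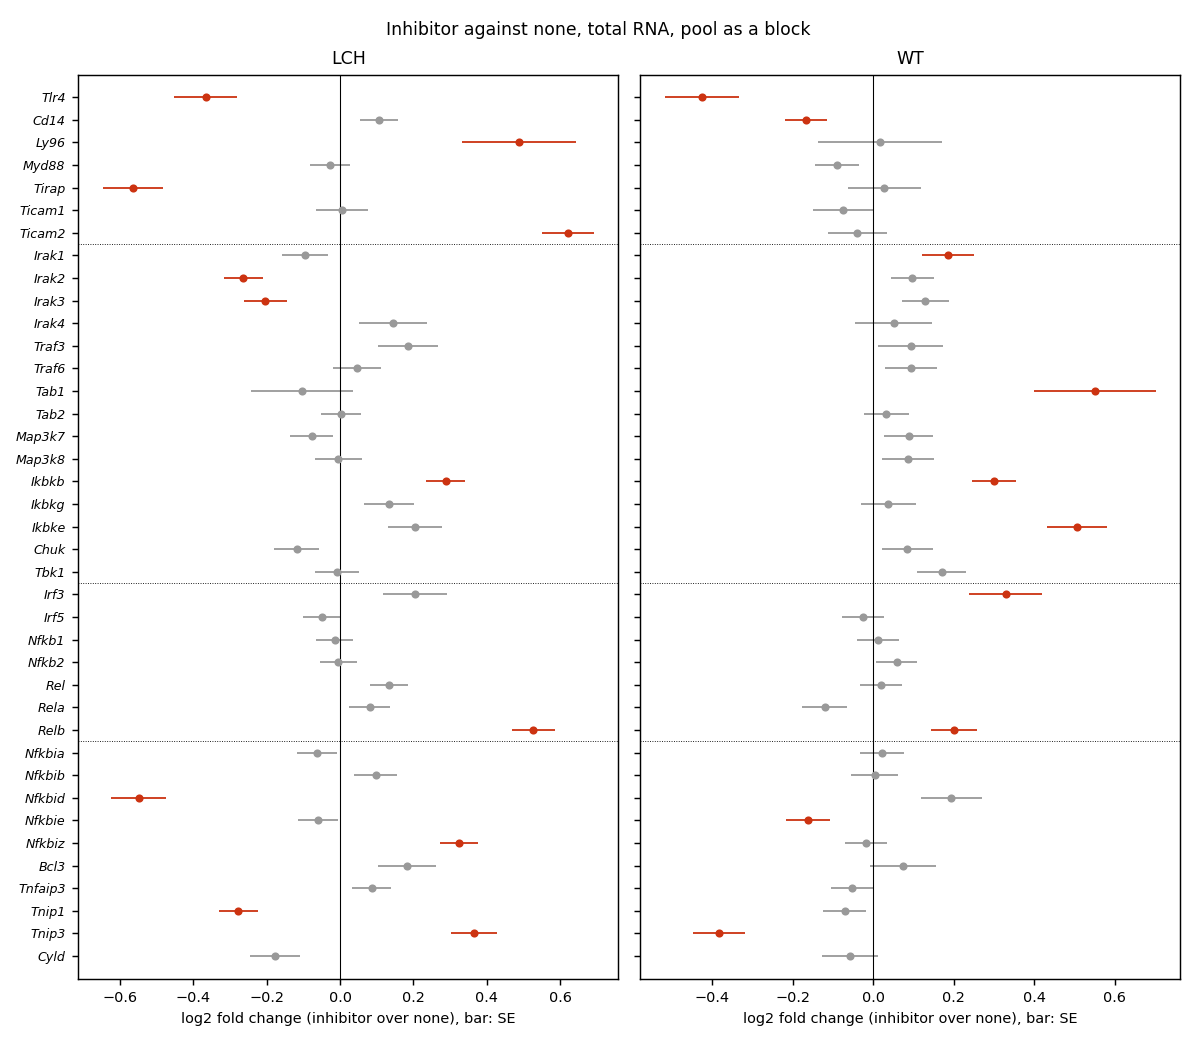
Log2 change with inhibitor in total RNA for the 39 genes, in LCH (left) and WT (right), from the fit with the pool as a block. Bars are 1 SE and red points passed an adjusted p of 0.05 over all genes. Tlr4 is lowered and Ikbkb raised in both panels, while Tnip3 is raised in LCH and lowered in WT.

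In LCH cells the receptor side of the pathway moved in both directions with the inhibitor. Tirap went from 27.3 to 20.6 CPM in pool E, from 24.25 to 15.8 CPM in pool F and from 25.2 to 15.8 CPM in pool G. It fell in every pool, by a log2 change of -0.56 ± 0.08 with an adjusted p of 8.01e-05. Ticam2, the adaptor that couples TLR4 to Ticam1, went from 37.6 to 56.9, from 29.1 to 46.25 and from 23.4 to 35.5 CPM in the same pools. It rose in every pool, by a log2 change of 0.62 ± 0.07 with an adjusted p of 3.98e-06. Tlr4 went from 18.8 to 12.8, from 22.45 to 17.9 and from 25.5 to 21.6 CPM. That fall of -0.37 ± 0.09 in log2 had an adjusted p of 0.0056, and 0.0849 without pool E. Ly96 rose by 0.49 ± 0.16 in log2 (adjusted p 0.038), a call lost without pool E (0.255), pool F (0.155) or pool G (0.0532).

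Further down the LCH pathway, Relb (ENSMUSG00000002983.18, chromosome 7) went from 178 to 253.5, from 166 to 251 and from 169 to 236 CPM in pools E, F and G. It rose in every pool, by a log2 change of 0.53 ± 0.06 with an adjusted p of 2.59e-06. Nfkbid went from 28.1 to 21.2, from 34.0 to 20.8 and from 32.9 to 22.7 CPM, a fall in every pool of -0.55 ± 0.08 in log2 with an adjusted p of 4.13e-05. Tnip3 went from 389 to 486, from 320 to 428 and from 389.5 to 498 CPM, and rose by 0.36 ± 0.06 in log2 with an adjusted p of 0.000425. Nfkbiz, a nuclear IkB protein known as a coactivator of secondary response genes, went from 1090 to 1347, from 938 to 1196 and from 1078 to 1347 CPM. That rise of 0.33 ± 0.05 in log2 was present in each pool and had an adjusted p of 0.000187. Ikbkb, the other catalytic IKK subunit, rose by 0.29 ± 0.05 in log2 (adjusted p 0.000851), while Irak2 fell by a log2 change of -0.26 ± 0.05 (0.00167) and Tnip1, a partner of Tnfaip3, by one of -0.28 ± 0.05 (0.00102). Irak3 was lower by -0.20 ± 0.06 in log2 (adjusted p 0.0221), with adjusted p-values of 0.218 without pool F and 0.108 without pool G. Apart from Tlr4, Ly96 and Irak3, the other 9 genes passed whichever pool was left out, and without pool G 10 genes passed.

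In WT cells, which lack the mutant kinase, the blocked fit also called changes with the inhibitor. Tlr4 went from 16.7 to 11.4 CPM in pool A, from 24.1 to 20.6 CPM in pool BD and from 21.9 to 15.2 CPM in pool C. It fell in every pool, by a log2 change of -0.43 ± 0.09 with an adjusted p of 0.00302. Tnip3 went from 239 to 214, from 208.5 to 151 and from 217 to 151 CPM, a fall in each pool of -0.38 ± 0.06 in log2 with an adjusted p of 0.000406. Ikbke went from 443 to 518, from 283 to 452 and from 349.5 to 538 CPM and rose by 0.51 ± 0.07 in log2 (adjusted p 0.000371), and Ikbkb rose by 0.30 ± 0.05 (adjusted p 0.000779). These 4 genes passed whichever pool was left out.

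The other 6 WT calls depended on single pools. Tab1 (log2 change 0.55, adjusted p 0.0144) did not pass without pool BD (0.242). Irf3, the transcription factor of the second arm (0.33, 0.0139), did not pass without pool BD (0.19) or C (0.122), Cd14 (-0.17, 0.0295) without BD (0.134) or C (0.106), Irak1 (0.19, 0.0493) without BD (0.238) or C (0.264), Relb (0.20, 0.0179) without A (0.0629) or C (0.222), and Nfkbie (-0.16, 0.0429) without A (0.103), BD (0.22) or C (0.0566). The number of genes called in WT was 9 without pool A, 5 without pool BD and 5 without pool C.

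The difference between the inhibitor effects in LCH and in WT was tested as an interaction. None of the 39 genes passed without the block, against 0.404% of all genes, while 5 had an unadjusted p under 0.05 in edgeR and 3 passed with DESeq2. With the pool as a block 11 passed, 5 in the positive and 6 in the negative direction, beside 19.7% of all genes. Tnip3 had the widest positive difference, 0.75 ± 0.09 in log2 (adjusted p 1.74e-05), as it rose in LCH and fell in WT. Nfkbid had the widest negative one, -0.74 ± 0.11 (adjusted p 9.51e-05), with a fall in LCH and WT values of 40.7, 30.4 and 34.4 CPM without and 44.1, 33.3 and 43.3 CPM with inhibitor. Ticam2 differed by 0.66 ± 0.10 (adjusted p 0.000164) and Tirap by -0.59 ± 0.12 (adjusted p 0.00238). Irak2 (-0.36, adjusted p 0.00247), Relb (0.33, 0.00813) and Nfkbiz (0.34, 0.00294) passed as well. These 7 genes passed in each of the 6 fits that left out 1 pool.

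The other 4 interaction calls were Cd14 (log2 difference 0.27, adjusted p 0.0145), Irak1 (-0.28, 0.0358), Irak3 (-0.33, 0.00831) and Tab1 (-0.65, 0.0312). Cd14 did not pass without pool E (0.0746) or F (0.0558), Irak3 not without F (0.0604) or C (0.0727), Irak1 not without E (0.0766), F (0.166), BD (0.125) or C (0.144), and Tab1 not without E (0.0652), F (0.121), G (0.0544), BD (0.205) or C (0.0578). The number of the 39 genes called was 7 without pool F, 10 without pool G and 12 without pool A. Inhibitor calls and genotype calls share libraries, so their values stand side by side and were not correlated.

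Polysome RNA was described against total RNA within LCH cells, where all 39 genes had counts in both fractions of each culture. Some counts were low. In polysome RNA of pool F, Tlr4 had 14 counts without and 10 with inhibitor, and Tirap had 17 and 6. The 4 rRNA-type genes took 18% to 65.1% of the counts of LCH polysome libraries. The part of this share in the ratios was not tested. Relative to total RNA, the polysome fraction held less mRNA of Tlr4, Tirap, Nfkb1, Rel and Nfkbiz and of the kinases Chuk and Tbk1, and more of Ly96 and Nfkbia. Without inhibitor 5 genes were higher in polysome RNA, 17 were lower and 17 did not pass. Over all genes 29.5% were called, 14.8% higher and 14.6% lower. The median log2 ratio was -0.632 over the 39 genes and -0.263 over all genes. With inhibitor 3 were higher and 19 lower, beside 30.1% of all genes (12.9% higher and 17.2% lower), with medians of -0.714 and -0.236. All values here are relative to the other genes of the same library, and their CPM are scaled over the 12 LCH libraries, so they differ from the total RNA values given above.

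**Figure D4:**
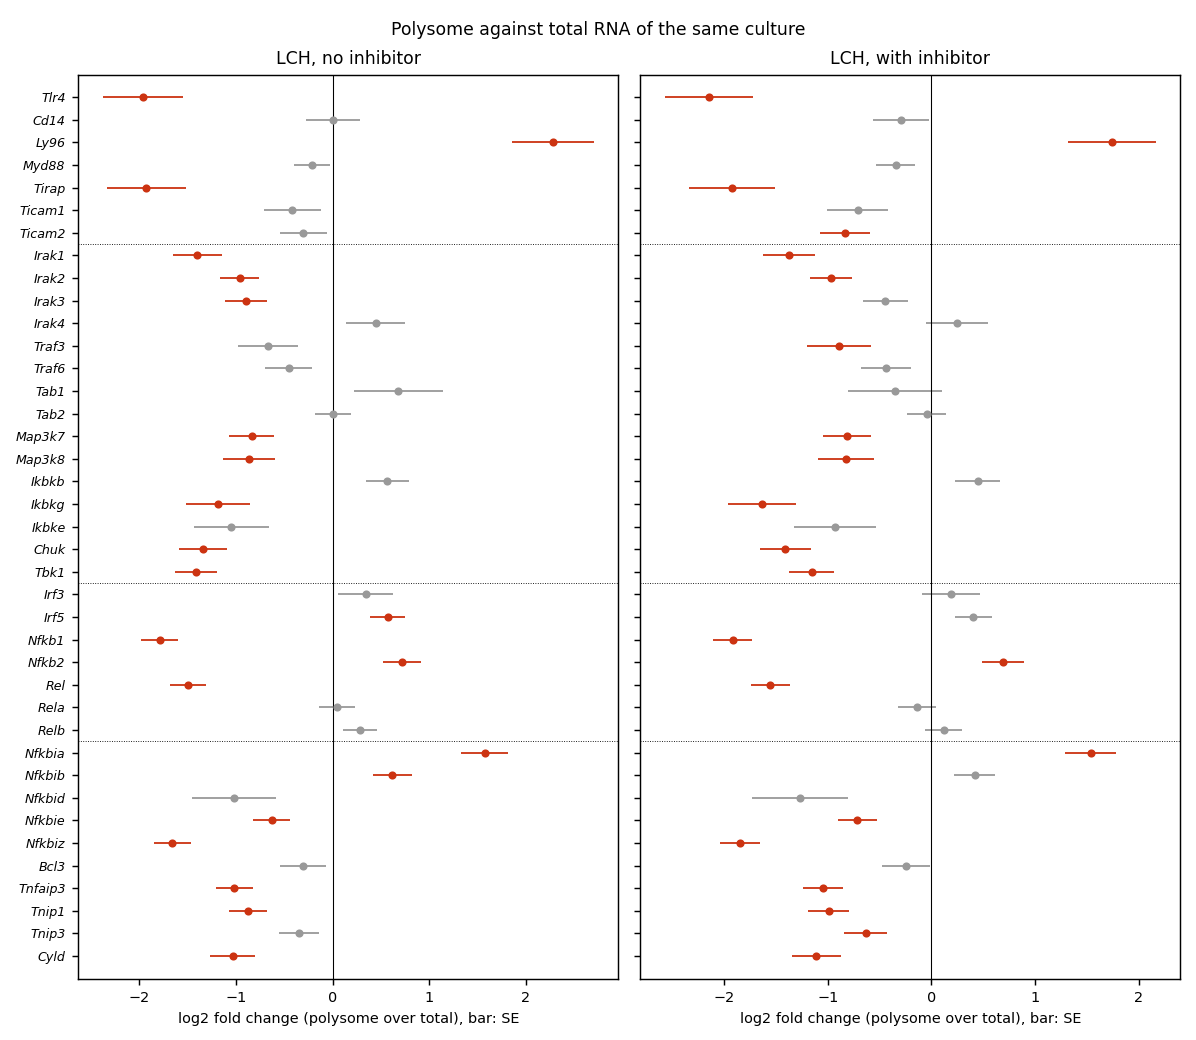
Log2 ratio of polysome to total RNA in LCH cells for the 39 genes, without inhibitor (left) and with inhibitor (right), from edgeR with each culture as a block. Bars are 1 SE and red points passed an adjusted p of 0.05. Ly96 and Nfkbia lie farthest above 0, and Tlr4, Tirap, Nfkb1 and Nfkbiz lie among the lowest in both panels.

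Of the receptors and adaptors, 1 was higher and 2 were lower in polysome RNA without inhibitor. Ly96 measured 11, 17.1 and 14 CPM in polysome RNA of pools E, F and G and 2.07, 3.28 and 3.33 CPM in their total RNA. Polysome RNA was higher in every pool, with a log2 ratio of 2.28 ± 0.42 and an adjusted p of 0.00039. Tlr4, the partner of Ly96 at the cell surface, measured 3.02, 3.63 and 4.90 CPM in polysome and 12.5, 14.9 and 17.3 CPM in total RNA. Tirap measured 3.34, 4.41 and 6.07 CPM against 18.2, 16.1 and 17.1 CPM. Both were lower in polysome RNA in every pool, with log2 ratios of -1.96 ± 0.42 (adjusted p 0.00134) and -1.93 ± 0.41 (adjusted p 0.00131). With inhibitor Ticam2 was lower as well (-0.83, adjusted p 0.0131, and up to 0.0832 without a library of pool E), and the ratios were 1.74 ± 0.43 for Ly96 (adjusted p 0.0042), -2.15 ± 0.43 for Tlr4 (0.000781) and -1.93 ± 0.41 for Tirap (0.00145). In that state the Ly96 polysome values of 26.1, 13.3 and 6.51 CPM were spread widely, and the call was lost without the polysome (0.184) or the total RNA library (0.128) of pool E. Cd14 was close to even without inhibitor, at 657, 348.5 and 863 CPM in polysome and 498, 646 and 618 CPM in total RNA, with a log2 ratio of 0.0051 (SE 0.28, adjusted p 0.994) whose sign changed under some alternatives.

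Of the 15 kinases and ubiquitin-linked proteins, 8 were lower and none higher in polysome RNA, in both inhibitor states. Over all genes 14.6% were lower without inhibitor and 17.2% with it. Tbk1, a kinase of Irf3, measured 25.9, 19.45 and 25.7 CPM in polysome and 54.4, 64.8 and 70.7 CPM in total RNA, a log2 ratio of -1.42 ± 0.22 with an adjusted p of 7.01e-05. Chuk measured 17.9, 10.1 and 18.1 CPM in polysome and 38.5, 37.6 and 38.7 CPM in total RNA, a log2 ratio of -1.34 ± 0.25 with an adjusted p of 0.000472. In both genes each polysome library was below each total library. Irak1 (-1.40, adjusted p 0.000354) and Irak2 (-0.96, adjusted p 0.00121), kinases of the Myd88 complex, were lower as well. These 4 passed in both states under all 12 alternatives, with ratios of -1.15, -1.41, -1.38 and -0.97 with inhibitor for Tbk1, Chuk, Irak1 and Irak2. Without inhibitor Irak3 (-0.89), Map3k7 (-0.84), Map3k8 (-0.87) and Ikbkg (-1.19) also passed, and of these the last 3 lost their call when pool G was left out (adjusted p 0.0758, 0.0684 and 0.0601). Map3k7 also lost it without a library of pool E (up to 0.0843) or the total RNA library of pool G (0.0503), and Map3k8 and Ikbkg without one of pool F (up to 0.157 and 0.0731). With inhibitor Traf3 (-0.89), Map3k7 (-0.82), Map3k8 (-0.82) and Ikbkg (-1.63) passed, and single libraries of pools E and G ended the call of Traf3 (up to 0.227), of pool F that of Map3k7 (up to 0.0978) and of pool G that of Map3k8 (up to 0.188). With no culture block Irak3 without inhibitor (0.0528), Map3k8 in both states (0.0549 and 0.0561) and Traf3 (0.122) did not pass, and Traf3 did not pass with DESeq2 either (0.0678).

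Among the transcription factors, Nfkb1 measured 153, 124 and 176.5 CPM in polysome and 541, 493 and 520 CPM in total RNA of pools E, F and G. Rel, the other activating subunit, measured 82.25, 68.2 and 95.3 CPM against 234, 212 and 241 CPM. Both were far lower in polysome RNA in all pools, with log2 ratios of -1.79 ± 0.19 (adjusted p 9.58e-07) and -1.49 ± 0.19 (adjusted p 6.37e-06). The same genes had ratios of -1.92 and -1.55 with inhibitor, and both passed under all 12 alternatives in both states. Nfkb2, the precursor of the alternative pathway, was the reverse at 647, 674 and 713 CPM in polysome and 409, 404 and 419.5 CPM in total RNA, a log2 ratio of 0.72 ± 0.20 with an adjusted p of 0.00938. It passed with inhibitor too (0.69, adjusted p 0.0128), but the call without inhibitor was lost without a library of pool E (adjusted p up to 0.0968) or pool G (up to 0.102). With inhibitor it was lost without one of pool E (up to 0.266) or pool F (up to 0.168). Without a low-count filter Nfkb2 did not pass in either state (0.0754 and 0.15). Irf5 passed without inhibitor (0.57, adjusted p 0.0227) and lost that call without any 1 of the 6 libraries, and without a low-count filter (0.535).

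The feedback inhibitors differed among themselves. Nfkbia (ENSMUSG00000021025.9, chromosome 12) measured 1208, 2092 and 1331 CPM in polysome and 474, 496 and 540 CPM in total RNA. Nfkbiz measured 250, 163 and 258 CPM in polysome and 726, 625 and 730 CPM in total RNA. Nfkbia was higher and Nfkbiz lower in polysome RNA in every pool, with log2 ratios of 1.57 ± 0.24 (adjusted p 8.75e-05) and -1.66 ± 0.20 (adjusted p 3.39e-06). Tnfaip3 measured 326, 299 and 379 CPM against 627, 705 and 694 CPM, a log2 ratio of -1.02 ± 0.19 with an adjusted p of 0.000477. Tnip1 (-0.87, adjusted p 0.00242) and Cyld, a deubiquitinase (-1.04, adjusted p 0.00228), were lower too. With inhibitor the ratios were 1.54 for Nfkbia, -1.85 for Nfkbiz, -1.04 for Tnfaip3, -0.99 for Tnip1 and -1.11 for Cyld, and these 5 genes passed in both states under all 12 alternatives. Nfkbib (0.62) and Nfkbie (-0.63) passed without inhibitor and Nfkbie (-0.71) and Tnip3 (-0.63) with it, and each of these calls depended on single libraries. Without inhibitor the adjusted p rose to 0.266 for Nfkbib without a library of pool E and to 0.353 without one of pool G, and to 0.125 and 0.132 for Nfkbie without one of pools E and F. With inhibitor it rose to 0.0669 for Nfkbie without one of pool E and to 0.246 for Tnip3 without one of pool F. Nfkbib did not pass without a low-count filter (0.486), nor Tnip3 with no culture block (0.137). Without pool G the number called over all roles was 19 without and 20 with inhibitor, in place of 22 and 22.

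For the inhibitor within LCH polysome RNA, none of the 39 genes passed, which does not show that their levels were the same. This held without and with the pool as a block, where 0.00% and 0.270% of all genes were called. Relb was higher with inhibitor in every library (179, 182 and 169 CPM against 137, 149 and 133 CPM) and Tab1 lower (4.51, 3.33 and 3.85 CPM against 5.61, 18.9 and 6.17 CPM). Relb alone had an unadjusted p under 0.05 in edgeR, with a log2 change of 0.50 (p 0.0406). The effect of the inhibitor on the ratio of polysome to total RNA passed for no gene either, of the 39 or of all 14816 tested (0.00%), with 0 of the 39 and 205 of all genes under an unadjusted p of 0.05. DESeq2 called 0 of the 39 in both tests. Tirap, for example, measured 4.51, 1.05 and 4.11 CPM in polysome RNA with inhibitor, which overlapped the values without it. The shallow pool F and the wide spread of low-count genes limit what these tests could detect.

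The last comparison, LCH against WT polysome RNA, was limited by depth. Outside 4 rRNA-type genes, WT polysome libraries held 24065 to 1171449 counts, and the 39 genes together had 132 to 3285 counts without and 186 to 600 with inhibitor. Only 9 to 30 of them were seen in a WT polysome library without inhibitor and 10 to 12 with it. Ly96, Tab1, Chuk, Irf3 and Nfkbid were at 0 in all 6 WT polysome libraries, while only Cd14 and Nfkbia had a count in all 6.

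**Figure D5:**
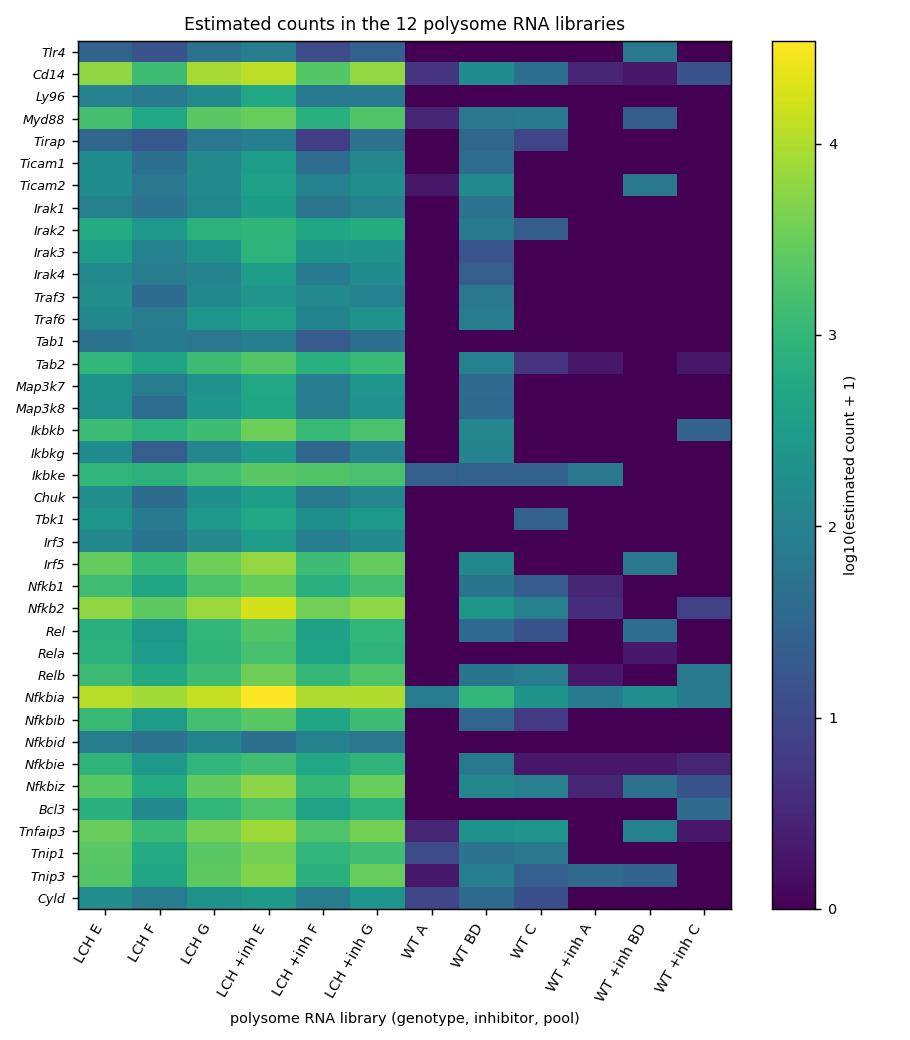
Estimated counts of the 39 genes in the 12 polysome libraries, as log10 of the count plus 1, with genes in the vertical and libraries in the horizontal direction. The 6 LCH libraries hold counts for all 39 genes, and the WT libraries are at 0 for many of them, most of all with inhibitor.

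A count of 0 set only loose limits there. As CPM of the counts outside the rRNA-type genes, 3 counts amounted to 125 CPM in WT pool A, 2.56 CPM in pool BD and 26.9 CPM in pool C, all without inhibitor, for counting error only. Ly96 in LCH polysome RNA stood at 12.3, 20.6 and 14.7 CPM on that scale, so its absence from pools A and C was not detectable as a difference at this depth, and the comparison rests on pool BD. Rela, at 97.2, 96.4 and 94.5 CPM in LCH, was above the limit in pools BD and C and below it in pool A. Nfkbia was counted 81, 977 and 222 times in WT, and 11209, 8070 and 13595 times in LCH. Tested as they stand, 7 of the 39 genes were higher in LCH without inhibitor, all with 0 counts in WT, beside 22.1% of all genes, and 23 were higher and 1 lower with inhibitor, beside 40.6%. For the ratio of polysome to total RNA, 8 were higher in LCH, beside 11.8%. With DESeq2's size factors the count with inhibitor and that for the ratio were both 0. The count without inhibitor was 15 without WT pool BD, and the count with inhibitor was 0 without WT pool BD and 13 to 15 without LCH pool E, F or G. For the ratio it was 0 without the polysome library of LCH pool E, F or G or the total RNA library of pool E or G, 3 without the total RNA library of pool F and 5 without WT pool A. No fold change is given for these calls.

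Related genes outside the 39 were read from 4 further lists. Of 41 tested genes from the rest of the TLR4 and NF-kB pathway, 5 were higher and 6 lower in LCH than in WT total RNA without inhibitor, beside 29.7% of all genes (14.8% higher and 14.9% lower). They were led by Rnf11, a member of the Tnfaip3 complex (log2 difference -0.61, adjusted p 0.000564), Itch, its partner ubiquitin ligase (0.59, 0.000923), Pik3ap1, an adaptor that restrains TLR signalling (0.69, 0.00151), and Irf4, a transcription factor of dendritic cells (-1.08, 0.00432). The list of other Toll-like receptors had 10 tested genes and also held Unc93b1, which is not a receptor. Tlr2, the receptor of bacterial lipoproteins, was lower in LCH at 177, 249 and 176 CPM against 530, 548 and 586 CPM (log2 difference -1.47, adjusted p 6.88e-05). Tlr13, a receptor of bacterial RNA, was higher (0.57, adjusted p 0.00311). The other 8 tested genes of this list did not pass. The p38 and JNK arm had 1 higher and 4 lower of 12, beside the same 29.7%, among them the p38 kinase Mapk13 (-1.73, adjusted p 0.00028), the kinase Map2k4 (-0.58, 0.00552) and the JNK gene Mapk8 (-0.48, 0.00633). Mapk11, the only gene of this arm higher in LCH, was counted at 0.927 to 1.15 CPM in LCH and at most 0.0514 CPM in WT (adjusted p 0.00203).

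Of 21 genes known to be induced by NF-kB or LPS, 3 were higher and 5 lower in LCH than in WT total RNA without inhibitor, beside 29.7% of all genes. The cytokine Il1b was higher (log2 difference 0.77, adjusted p 0.000599), and Il12b, the chemokine Ccl5 and the mitochondrial enzyme Sod2 were lower (-1.11, -1.04 and -0.60). Within LCH cells the cytokine subunit Il23a was the only gene of these lists that fell with the inhibitor without the block, from 32.4, 31.6 and 30.8 CPM to 15.5, 17.6 and 11.3 CPM (log2 change -1.09, adjusted p 0.0109). In the blocked fit 5 of the 21 rose and 13 fell in LCH, beside 17.2% of all genes, and 12 fell in WT, beside 21.7%. Il1a and Ptgs2, a cytokine and a prostaglandin synthase, were lower in both genotypes, by -0.98 and -0.63 in LCH and -0.46 and -0.52 in WT, while Cd83, a maturation marker of dendritic cells, rose in LCH (0.72). Relative to total RNA, 9 of the 21 were higher and 5 lower in LCH polysome RNA without inhibitor, beside 29.5% of all genes (14.8% higher and 14.6% lower), led by the acute-phase gene Saa3 (log2 ratio 3.77), the chemokine Ccl4 (2.16) and Ifnb1 (2.24) above and Ptgs2 (-1.61) below. In the same comparison 5 of 10 tested genes from the list of other Toll-like receptors were lower and none higher, with Tlr9, a receptor of DNA, at -3.40.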

How the data were processed

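RNA was sequenced from 24 libraries in 8 groups of 3. The authors deposited estimated counts per gene, whole numbers in the file, made with Salmon and DESeq2 on build mm9 per the submitters' processing notes, which give no versions. The file names no build, so its coordinates are not printed. The authors also deposited rlog values, on a log2 scale per the file headers, which served as an alternative input. Their DESeq2-normalized sheet was not used.

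Columns carry pool letters and not the labels' replicate numbers, and were assigned to groups by genotype, inhibitor and fraction. Pool GH in polysome RNA was treated as pool G. P-values measure the spread between these 3 pools a group, and the labels do not say what a pool holds. Same-letter libraries with and without inhibitor deviated together (correlations of 0.346 to 0.735 in LCH total RNA, 0.114 to 0.421 in WT total RNA and 0.203 to 0.390 in LCH polysome RNA, every pair over 0.1), so the pool block is given where it changes calls. In LCH total RNA, pool E without inhibitor also correlated with pool F with inhibitor, at 0.370. The genotypes share no pool letter.

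Tests used R 4.3.3 and the quasi-likelihood fit of edgeR 4.0.16 (robust, TMM, filterByExpr with a minimum count of 10), two-sided, with Benjamini-Hochberg adjustment over all genes and a threshold of 0.05. Total RNA tests used all 12 total libraries, and polysome against total RNA tests used the 12 LCH libraries with each culture as a block. All 39 genes passed the filter on low counts in total RNA (with 13375 gene models) and in LCH polysome RNA (with 10757). CPM are TMM-scaled and not per length, so levels are not compared between genes. DESeq2 1.42.0, limma 3.58.1 on rlog values, other scaling, no filter, other sets of libraries and leaving out libraries or pools were alternatives. The fits of some comparisons were run on simulated data. These held no pool or culture effect, so they could not test the blocks. The count limits cover counting error only, while SE values come from the edgeR fit and take in the spread between libraries. A fold change and test are given for genes called with or without the block and for the most abundantly counted gene of each role. Called genes of the further lists are named by smallest p, up to 4 a list and comparison. The members, lists and comparisons were chosen with earlier results of these data known.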

Additional observations from a re-analysis of the deposited data

Results flagged for a closer look

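The inhibitor's effect differed between LCH and WT in total RNA for 11 genes, by an interaction test in edgeR with the pool as a block, and none of these 11 passed without the block. The difference, as the log2 effect in LCH minus that in WT, was 0.7475 for Tnip3, 0.6609 for Ticam2, 0.3427 for Nfkbiz, 0.3271 for Relb and 0.2726 for Cd14. It was -0.7431 for Nfkbid, -0.6549 for Tab1, -0.5923 for Tirap, -0.3610 for Irak2, -0.3331 for Irak3 and -0.2811 for Irak1. The same test called 19.7% of all genes.

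The ratio of polysome to total RNA differed between LCH and WT without inhibitor for 8 genes, by edgeR's adjusted p of 0.0149 for Ly96 and also 0.0149 for Rela, 0.0155 for Irf3, 0.0231 for Chuk, 0.0347 for Nfkbid, 0.0405 for Bcl3, 0.0456 for Tab1 and 0.0484 for Nfkbib. Of these 8, all but Nfkbib had 0 counts in the 3 WT polysome libraries, where 3 counts amounted to 2.56 to 125 CPM of the counts outside the rRNA-type genes, and the part of this depth in the calls was not tested. The same test called 11.8% of all genes. Leaving out single libraries gave 0 to 12 of the 39 genes, and with DESeq2's size factors none of them passed.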

How the results depend on the processing

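The number of the 39 genes called changed with the processing. For the inhibitor in LCH total RNA, 0 became 3 without a low-count filter, 3 with DESeq2, 1 with only the compared groups and 12 with the pool as a replicate block. For the interaction, 0 became 2 without a filter, 3 with DESeq2 and 11 with the block, and for the inhibitor in WT 0 became 10 with the block. The block, with pools paired by letter, changed no call of the inhibitor in LCH polysome RNA. Smaller moves came without the culture block, where polysome against total RNA gave 21 and 19 in place of 22 and 22, and loading between genotypes 12 in place of 8. LCH against WT with inhibitor gave 13, and 8 with only the compared groups and 7 with rlog values. For LCH against WT polysome RNA, 7 without inhibitor became 2 without a filter, and 24 with inhibitor became 0 with DESeq2's size factors, 3 without a filter and 10 with DESeq2. The count for polysome loading between genotypes went from 8 to 0 with DESeq2's size factors. The cause was not tested. Direction was turned only for genes that passed in none of these fits: Cd14 in polysome against total RNA (-0.0009 with DESeq2's size factors, -0.2559 without a filter, -0.0013 with DESeq2, -0.1705 without pool G), Cd14 for the inhibitor in LCH polysome RNA (0.0494 without pool G, 0.0096 with rlog), Nfkb1 in the same test (0.0453 with rlog), Tnfaip3 for the inhibitor's effect on loading (0.0970 with size factors, 0.0968 with DESeq2, 0.1559 without pool G), and Ikbke for that effect (-0.1918 without pool F) and for LCH against WT with inhibitor (-0.1181 without pool G). The fits without pool F or G, and the blocked fits that left out a pool, were chosen after seeing the data.

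Leaving out 1 library at a time gave counts of 9 to 14 for LCH against WT without inhibitor and 6 to 12 with it. The inhibitor gave 0 to 1 in LCH and 0 in WT unblocked, and with the block and 1 pool left out 10 to 11 in LCH and 5 to 9 in WT. The interaction gave 0 to 1 unblocked and 7 to 12 with the block. Polysome RNA between genotypes gave 6 to 15 without and 0 to 16 with inhibitor, loading between genotypes 0 to 12, and polysome against total RNA in LCH 18 to 21 without and 17 to 21 with inhibitor. Log2 values that changed sign ran from -0.0789 to 0.0906 (Nfkb1, inhibitor in WT), -0.0401 to 0.0280 (Nfkb1, inhibitor in LCH), -0.1045 to 0.0651 (Nfkb1, interaction), -0.1168 to 0.1719 (Ikbke, LCH against WT with inhibitor), -0.0742 to 0.4770 (Relb, inhibitor in WT, called only with the block, at an adjusted p of 0.0179), -0.3692 to 0.1839 (Cd14, inhibitor in LCH polysome RNA), -0.1033 to 0.0934 (Nfkb1, the same test), -0.0746 to 0.9344 (Ikbke, the same test), -0.2744 to 0.4167 (Cd14, polysome against total RNA), -0.5216 to 0.4776 (Ikbke, inhibitor's effect on loading) and -0.2221 to 0.0993 (Tnfaip3, that effect). WT polysome depth, 24065 to 1171449 counts outside the rRNA-type genes, limits every comparison that uses those libraries.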
